A study of Bos taurus with 4 samples.

Results

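The enteric nervous system is the network of neurons and glia within the gut wall, and RNA of 8 of its genes was measured in bovine tissues and organoids. The genes were taken by symbol as named markers of these cells, and each has 1 of the 29792 rows of the count data. UCHL1, ELAVL4 and RET mark neurons, VIP and TAC1 encode neuropeptides, and S100B, GFAP and SOX10 mark glia. The 4 libraries were small intestine, muscle, and intestinal organoids at passage 5 (P5) and passage 10 (P10), 1 library each. All came from Hanwoo cattle older than 24 months. For the organoids, jejunal crypts served as the starting material, with IntestiCult as the medium and Matrigel as the matrix. The labels give no treatment or genotype, and do not say which muscle was sampled or whether the tissues and crypts came from the same animal. Per the study's methods, crypts were released from the layer left after mucosa and submucosa had been scraped away. A culture grown from crypts has no gut wall around it.

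Neurons of the gut arise from neural crest cells, which need the receptor tyrosine kinase RET to colonise the gut and to survive there. Mature enteric neurons release peptides such as vasoactive intestinal peptide, the product of VIP, which relaxes smooth muscle and drives epithelial secretion. Others release substance P and neurokinin A, both cut from the product of TAC1, which contract smooth muscle. Enteric glia surround the neurons and depend on the transcription factor SOX10.

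Libraries were made from the 3′ ends of polyadenylated RNA, and between 12917720 and 17776273 reads were counted in each. Levels are given as reads and as TMM-normalised CPM, the count per 1000000 reads, for which each library total was corrected by the TMM factor of edgeR. Each condition has 1 library, so no difference has a replicate check and no test was made. Intervals are exact 95% intervals of the reads and cover counting error only. A gene was called when it differed at least 2-fold between a pair of libraries with at least 10 reads in the higher one. Against organoids, a gene that reached 10 reads in intestine but not in the organoids could only be called higher in intestine or within 2-fold. A gene without reads was set to a floor of 3 reads, so its fold is a lower bound. That floor is 0.152 CPM in intestine, 0.423 in muscle, and 0.177 at P5 and 0.129 at P10 in organoids.

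The library labelled muscle had 264562 reads of ACTA1, the actin of skeletal muscle, and 132207 of TTN, which encodes titin. Intestine had 39 and 5 reads of these genes. Intestine also held RNA of other layers of the gut wall, with 9447 reads of MYH11, the smooth muscle myosin, and 86692 of JCHAIN, which links antibodies secreted by plasma cells. The ribosomal RNA row RN18S1 took 23.6% of the reads in muscle and at most 4.81% in each other library.

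Reads of VIP, TAC1 and ELAVL4 lay almost entirely in intestine, whereas S100B, UCHL1 and RET had their highest levels in muscle. GFAP had no read in any library, and SOX10 had 2 reads in intestine and none elsewhere. In the organoids, VIP, TAC1, GFAP and SOX10 had no reads at either passage. The 8 genes therefore did not share 1 pattern over the 4 libraries, and S100B, UCHL1 and RET were highest outside the gut, against their label as genes of enteric neurons and glia.

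**Figure D1:**
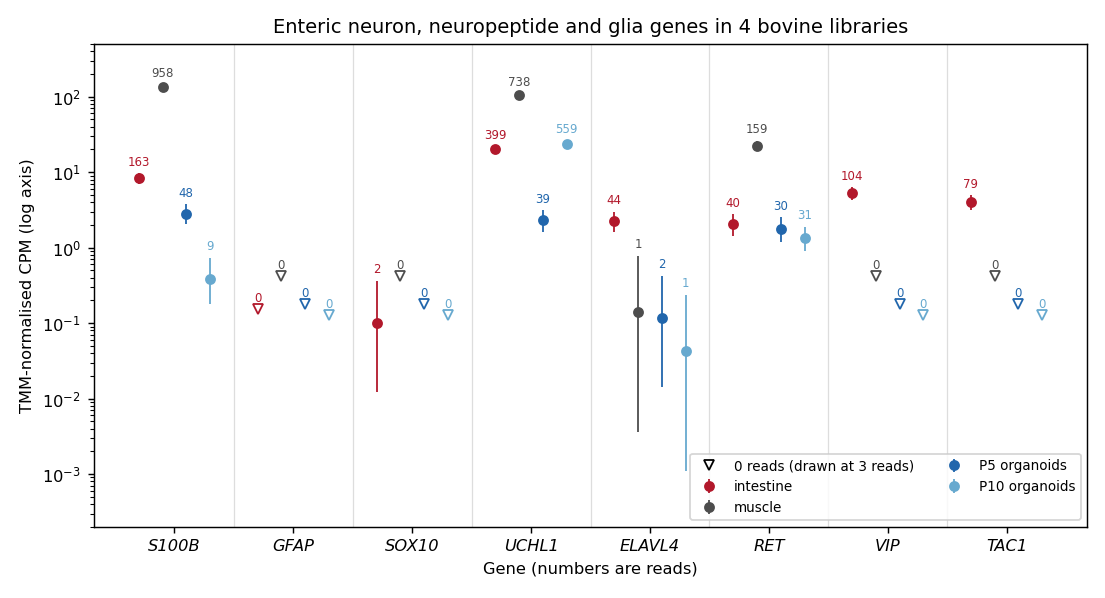
Level of each of the 8 genes in each library, in TMM-normalised CPM on a log axis, with exact 95% counting intervals as bars and the reads as numbers. Triangles stand for 0 reads and are drawn at the floor of 3 reads. VIP and TAC1 have reads in intestine alone, while muscle has the highest point for S100B (958 reads), UCHL1 (738 reads) and RET (159 reads).

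Both neuropeptide genes were counted in intestine alone. VIP had 104 reads in intestine and none in muscle, P5 organoids or P10 organoids. Its level in intestine was 5.28 CPM (95% interval 4.31 to 6.39), at least 12.5-fold that of muscle, at least 29.9-fold that of P5 organoids and at least 41.0-fold that of P10 organoids. TAC1 had 79 reads in intestine and none in the other libraries. Its level of 4.01 CPM (3.17 to 4.99) was at least 9.48-fold that of muscle, 22.7-fold that of P5 organoids and 31.1-fold that of P10 organoids. All of these folds are limited by the floor of the library without reads, which is highest in muscle, so their order says nothing about the libraries. With quantile normalisation the folds, on the log2(value + 1) scale and with the same floor, were lower, at 7.94, 15.9 and 9.31 for VIP and 5.68, 11.4 and 6.66 for TAC1. Of the 12146 rows with at least 79 reads in intestine, 83 (0.683%) had no read in any other library, and 313 (2.58%) had none in either organoid library. In a bulk sample, fewer cells of a type and less RNA per cell cannot be told apart.

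ELAVL4 encodes the neuronal RNA-binding protein HuD. It had 44 reads in intestine, 1 in muscle, and 2 at P5 and 1 at P10 in organoids. Its level in intestine was 2.23 CPM (1.62 to 3.00), and the other 3 libraries, with 1 or 2 reads each, cannot be ordered. Intestine was 15.8-fold above muscle (2.70 to 639), 19.0-fold above P5 organoids (4.95 to 162) and 52.0-fold above P10 organoids (8.86 to 2099). The width of these intervals comes from the 1 or 2 reads of the lower library, and the point values are correspondingly uncertain. With quantile normalisation the folds on the log2(value + 1) scale were 5.88, 9.09 and 5.88. ELAVL2 and ELAVL3 belong to the same family, and reads with several alignments were counted, so a few reads may be shared among them.

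UCHL1 encodes a ubiquitin hydrolase that is abundant in neurons and is also known as PGP9.5. It had 399 reads in intestine, 738 in muscle, and 39 at P5 and 559 at P10 in organoids. Muscle was highest at 104 CPM (96.7 to 112), followed by P10 organoids at 24.0 (22.1 to 26.1), intestine at 20.2 (18.3 to 22.3) and P5 organoids at 2.30 (1.63 to 3.14). Muscle was 5.14-fold above intestine (4.55 to 5.82) and 4.34-fold above P10 organoids (3.88 to 4.85). P10 organoids and intestine differed by only 1.19-fold (1.04 to 1.35), and intestine was 8.82-fold above P5 organoids (6.34 to 12.6). By the 2-fold rule muscle and P5 organoids differed from intestine and P10 organoids did not, and none of these comparisons has a replicate.

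RET encodes the receptor for ligands of the GDNF family. It had 40 reads in intestine, 159 in muscle, and 30 at P5 and 31 at P10 in organoids. Muscle, at 22.4 CPM (19.1 to 26.2), was 11.0-fold above intestine (7.77 to 16.0), 12.7-fold above P5 organoids (8.55 to 19.4) and 16.8-fold above P10 organoids (11.4 to 25.6). Intestine at 2.03 CPM, P5 organoids at 1.77 and P10 organoids at 1.33 did not differ beyond counting error. Intestine was 1.15-fold P5 organoids (0.698 to 1.91) and 1.52-fold P10 organoids (0.930 to 2.52), intervals that still allow an almost 2-fold or larger difference. With quantile normalisation these log2 ratios turned from 0.20 and 0.61 to -0.72 and -0.54. By the ARS-UCD2.0 annotation of RefSeq, RET overlaps CSGALNACT2, which had 142 reads in intestine, 132 in muscle, and 25 at P5 and 13 at P10 in organoids. The strand used in counting is not stated, so reads of these genes cannot be told apart from the counts.

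S100B encodes a calcium-binding protein that is used as a stain for enteric glia. It had 163 reads in intestine, 958 in muscle, and 48 at P5 and 9 at P10 in organoids. The levels fell into the order muscle (135 CPM, 127 to 144), intestine (8.27, 7.05 to 9.64), P5 organoids (2.83, 2.08 to 3.75) and P10 organoids (0.386, 0.177 to 0.734). Each step was beyond counting error. Muscle was 16.3-fold above intestine (13.8 to 19.4), intestine was 2.93-fold above P5 organoids (2.11 to 4.13), and P5 organoids were 7.31-fold above P10 organoids (3.55 to 17.0), or 4.35-fold with quantile normalisation. Intestine was 21.4-fold above P10 organoids (11.0 to 47.6), or 9.31-fold with quantile normalisation. GFAP, which encodes the intermediate filament of astrocytes and of some enteric glia, was at 0 reads in every library. By counting error alone, a count of 0 allows a level of up to 0.152 CPM in intestine. Reads come from 3′ ends and the annotation used is not given, so whether it covers the 3′ end of GFAP was not checked. SOX10 had 2 reads in intestine, or 0.101 CPM (0.0123 to 0.366), and no fold is given since all 4 libraries were at the floor. The glial members thus gave reads where S100B is concerned and next to none for GFAP and SOX10. In RefSeq GFAP overlaps FAM187A, which also had no reads in intestine or muscle but 12 at P5 and 20 at P10.

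Against muscle, 6 of the 8 genes had at least 10 reads in either library. ELAVL4, VIP and TAC1 were called higher in intestine, and S100B, UCHL1 and RET were called lower. Of the 17559 rows with as many reads, 34.6% were called higher in intestine and 23.0% lower, so a call in either direction was common. The median log2 ratio was 0.44 over these 6 genes and 0.29 over all rows. No gene lies near that 0.44, which is the midpoint between -2.36 for UCHL1 and the lower bound of 3.24 for TAC1. The folds of S100B, UCHL1 and RET against muscle depended on the scaling. Per library total, without the TMM factor, muscle was 8.09-fold above intestine for S100B, 2.55-fold for UCHL1 and 5.47-fold for RET. That scaling moved the median log2 ratio of all rows from 0.29 to 1.31. A factor for a whole library shifts every row alike, so relative to this median the log2 ratios were by construction -4.32, -2.66 and -3.76 under both scalings. With quantile normalisation they were -3.93, -2.14 and -4.14. With library totals, 83.2% of all calls were higher in intestine, and without RN18S1 in the totals 78.0%, against 60.0% with TMM.

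Against P5 organoids, 5 of the same 6 genes were called higher in intestine and none lower, with RET within 2-fold. Over all 17783 rows, 27.0% were called higher in intestine and 18.4% lower. Against P10 organoids, S100B, ELAVL4, VIP and TAC1 were called higher in intestine and none lower, with UCHL1 and RET within 2-fold, beside 31.6% and 22.0% of 17803 rows. Only 3 of the 6 genes reached 10 reads at P5 and 2 at P10. ELAVL4, VIP and TAC1 passed that minimum through intestine alone and so could not be called lower. At P10 this also held for S100B, with 9 reads. The median log2 ratio of the 6 genes was 3.69 against P5 organoids and 4.69 against P10 organoids, beside 0.083 and 0.12 over all rows. All 3 comparisons share the intestine library, so they are not independent of each other. With quantile normalisation, 45.7% of the calls over all rows were higher in intestine than at P5 and 44.0% than at P10, against 59.5% and 58.9% with TMM.

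**Figure D2:**
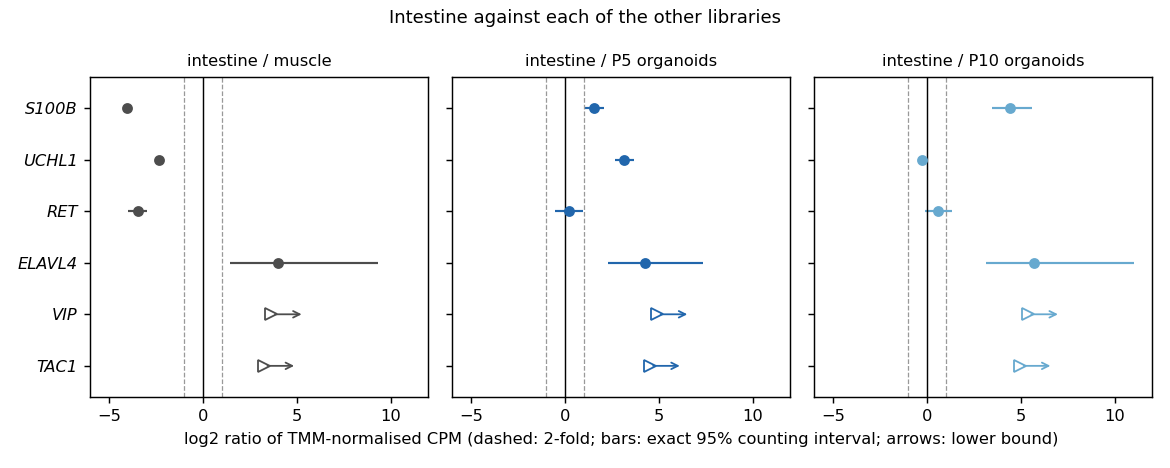
The log2 ratio of intestine to muscle, to P5 organoids and to P10 organoids for the 6 genes with at least 10 reads in a library. Points have exact 95% counting intervals, open arrows are lower bounds for genes without reads in the other library, and dashed lines mark 2-fold. S100B, UCHL1 and RET lie to the left for muscle (log2 ratios of -4.03, -2.36 and -3.47), and RET lies near 0 for both organoid libraries.

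Between the passages, 3 of the 8 genes had at least 10 reads in either organoid library. UCHL1 was called higher at P10 and S100B lower, and RET was within 2-fold. UCHL1 was 10.5-fold higher at P10 than at P5 (7.55 to 14.9), and 145 of the 16131 rows (0.899%) had a larger log2 ratio in that direction. S100B was 7.31-fold lower at P10, and 4.72% of rows lay farther out in that direction. Over all rows, 16.6% were called higher at P10 and 19.0% lower. RET had a P10 to P5 ratio of 0.754 (0.441 to 1.29). With 1 culture at each passage, passage and culture cannot be told apart.

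Other genes of neurons, transmitters and glia were taken from lists of known markers of each role. Of the 16 other neuronal genes, 13 had at least 10 reads in intestine or muscle, of which 6 were called higher in intestine and 3 lower. Against P5 organoids 10 of 13 were higher and 2 lower, and against P10 organoids 9 of 12 were higher and 1 lower. Only 5 of the 16 reached 10 reads at P5 and 4 at P10, so the others could not be called lower in intestine than in organoids. Over all rows the shares called higher and lower were 34.6% and 23.0% against muscle, 27.0% and 18.4% against P5 organoids, and 31.6% and 22.0% against P10 organoids, so the 3 of 13 lower against muscle lay at the background. The medians of the log2 ratio were 0.64, 2.05 and 2.40, beside 0.29, 0.083 and 0.12 over all rows. With quantile normalisation 4 were called higher than in muscle and 5 lower, beside 27.3% and 27.0% of all rows, and 5 higher than in P10 organoids and 1 lower, beside 22.0% and 28.0%. STMN2, which encodes a microtubule-binding protein of growing axons, had 203 reads in intestine, 7 in muscle, and 9 at P5 and none at P10 in organoids. Intestine was 10.4-fold above muscle for STMN2 (4.97 to 26.3) and 19.4-fold above P5 organoids (10.04 to 43.1). SNAP25, a part of the machinery that fuses synaptic vesicles, had 134, 1, 32 and 43 reads in the same order of libraries, and intestine was 3.61-fold above P5 organoids (2.44 to 5.49) and 3.68-fold above P10 organoids (2.59 to 5.32). Against this pattern, MAP2, which encodes a dendritic microtubule protein, had 363 reads in intestine and 84 in muscle but 1234 at P5 and 1453 at P10. P5 organoids were 3.94-fold above intestine for MAP2 (3.51 to 4.45) and P10 organoids 3.39-fold (3.02 to 3.81). SYT1, which encodes a calcium sensor of synaptic vesicles, was 3.63-fold higher in muscle than in intestine (2.58 to 5.14), a log2 ratio of intestine to muscle of -1.86 that became -0.85 per library total, within 2-fold. A few further genes were picked out after their values were seen. ELAVL3, which encodes a neuronal RNA-binding protein, had 22 reads in intestine and none in any other library. SYP, which encodes synaptophysin, had 48 reads in intestine and 1 read elsewhere, in P5 organoids. NEFM, which encodes a neurofilament subunit, had 78 reads in muscle, 10 in intestine and none in the organoids.

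The list of transmitter enzymes and other neuropeptides has 18 rows. Among rows with at least 10 reads, 7 of 11 were called higher in intestine than in muscle and 1 lower, 7 of 11 higher than in P5 organoids and 2 lower, and 9 of 10 higher than in P10 organoids and none lower. Only 4 rows of the list reached 10 reads at P5 and 1 at P10, so the others could not be called lower in intestine than in organoids. The medians of the log2 ratio were 1.98, 3.25 and 4.03, beside 0.29, 0.083 and 0.12 over all rows, with the shares of all rows called as given for the neuronal genes. Quantile normalisation left 6 called higher than in P10 organoids and none lower, beside 22.0% and 28.0% of all rows. GRP, which encodes gastrin-releasing peptide, had 695 reads in intestine, none in muscle, and 2 at P5 and none at P10 in organoids. GRP in intestine was at least 83.4-fold above muscle, 299.5-fold above P5 organoids (82.6 to 2478) and at least 273.7-fold above P10 organoids. PENK, the enkephalin precursor gene, had 113 reads in intestine, 5 in muscle and none in the organoids. DDC, the decarboxylase that makes dopamine and serotonin, was also counted in both organoid libraries, with 999 reads in intestine, 14 in muscle, and 761 at P5 and 1011 at P10 in organoids. TAC3 encodes neurokinin B, a relative of the TAC1 peptides, and was counted unlike TAC1, with 15 reads in intestine, none in muscle, and 217 at P5 and none at P10 in organoids. The genes named from here to the end of the paragraph were, apart from TAC3, picked out after their values were seen. TH, NPY and GAL had 101, 33 and 52 reads in intestine and none in either organoid library. CHAT and SLC18A3, which make and load acetylcholine, had no reads anywhere, and NOS1, the neuronal nitric oxide synthase, had 5 reads in intestine and 77 in muscle. The 1 gene called lower in intestine than in muscle was NOS1. TAC3 and CALCB were the 2 called lower than in P5 organoids.

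**Figure D3:**
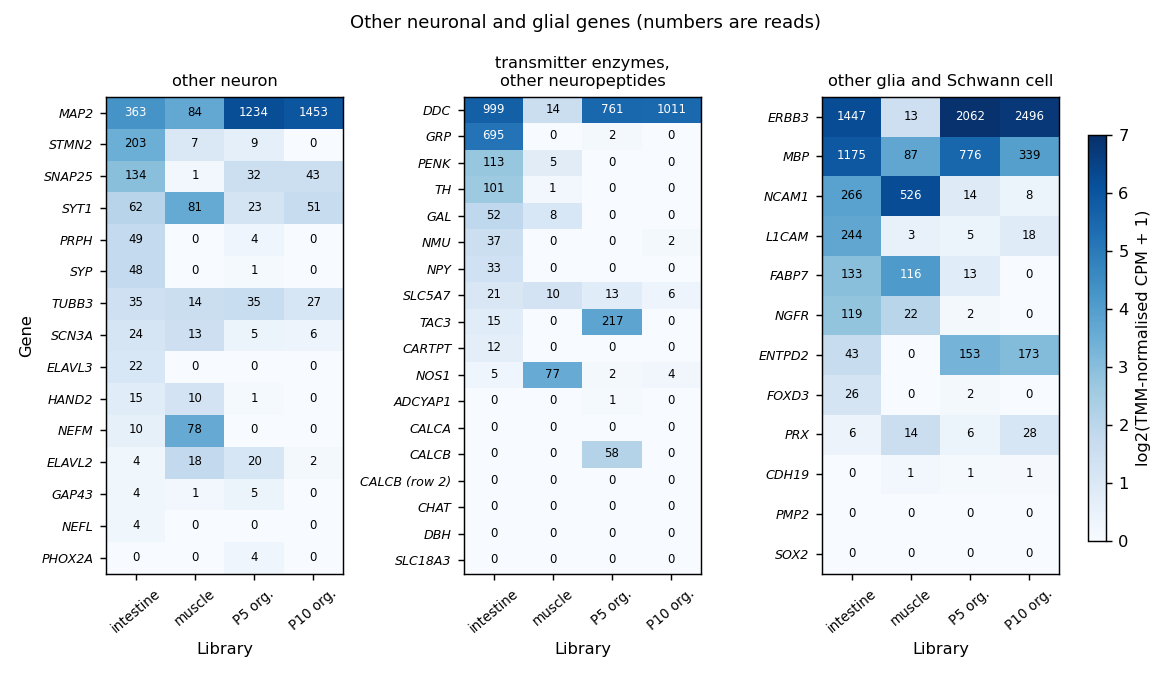
Reads of the named and most other neuronal, transmitter and glial genes in each library as numbers, shaded by log2(TMM-normalised CPM + 1) and sorted by the level in intestine. ELAVL3 has reads in intestine alone, and MAP2 and ERBB3 are high in both organoid libraries.

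Of the 15 other glial and Schwann cell genes, 12 had at least 10 reads in intestine or muscle, of which 6 were called higher in intestine and 4 lower. Against P5 organoids 7 of 10 were higher and 1 lower, and against P10 organoids 8 of 11 were higher and 2 lower. The medians of the log2 ratio were 1.30, 2.86 and 2.83. Beside the 34.6% higher and 23.0% lower of all rows against muscle, and their median of 0.29, the glial counts against muscle are not far from the background. Over all rows, 27.0% were called higher and 18.4% lower against P5 organoids, with a median of 0.083. Against P10 organoids these values were 31.6%, 22.0% and 0.12. At each passage only 6 of the 15 genes reached 10 reads. NCAM1, a cell adhesion gene of nerve and muscle, followed the order of S100B, with 526 reads in muscle, 266 in intestine, and 14 at P5 and 8 at P10 in organoids, but P5 and P10 did not differ beyond counting error. ERBB3, the neuregulin receptor of Schwann cells, was within 2-fold between intestine and either organoid library, and had 13 reads in muscle. MBP, a myelin gene, had 1175 reads in intestine, 87 in muscle, and 776 at P5 and 339 at P10 in organoids. SOX2 and PMP2, picked out after their values were seen, had no reads in any library.

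RET signals with a co-receptor of the GFRA family that binds the ligand. GFRA3 had 979 reads in intestine, 415 in muscle, and 713 at P5 and 1654 at P10 in organoids, and GFRA3 in intestine was within 2-fold of each other library. GFRA1, the co-receptor for GDNF, had 92, 182, 56 and 0 reads in the same order of libraries. GFRA1 was, like RET, higher in muscle than in intestine, by 5.50-fold (4.26 to 7.14). The ligand gene NRTN, which encodes neurturin, had 34 reads in intestine, 5 in muscle, and 24 at P5 and 145 at P10 in organoids, and was 4.41-fold higher at P10 than at P5 (2.85 to 7.10). GDNF had 35, 10, 7 and 51 reads and was 5.32-fold higher at P10 than at P5 (2.40 to 13.9). GFRA2, the co-receptor for neurturin, GFRA4, and the ligand genes ARTN and PSPN were picked out after their values were seen. GFRA2 had 72 reads in intestine, 11 in muscle, and none at P5 and 1 at P10 in organoids, and GFRA4 had 51 reads in intestine and none elsewhere. ARTN and PSPN had no reads. Of the 8 genes, 3 of 6 with at least 10 reads were called higher in intestine than in muscle and 1 lower, 3 of 6 higher and none lower against P5 organoids, and 3 of 6 higher and 1 lower against P10 organoids. The medians of the log2 ratio were 0.78, 1.30 and 2.01 in that order. Over all rows the shares called higher and lower were 34.6% and 23.0% against muscle, 27.0% and 18.4% against P5 organoids, and 31.6% and 22.0% against P10 organoids. The medians of all rows were 0.29, 0.083 and 0.12. With 6 genes, the counts against muscle are not far from these shares. Only 3 of the 8 genes reached 10 reads at P5 and 3 at P10, so the others could not be called lower in intestine than in organoids. The medians against both organoid libraries lie above those of all rows, but this minimum alone can raise them, so nothing is drawn from them. With quantile normalisation 1 was called higher than in muscle and 1 lower, beside 27.3% and 27.0% of all rows.

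The organoids had no reads of VIP or TAC1 but many of the genes of their receptors. VIPR1, the VIP receptor of epithelium, had 378 reads in intestine, 3 in muscle, and 724 at P5 and 886 at P10 in organoids. VIPR1 in P5 organoids was 2.22-fold above intestine (1.96 to 2.52), and in P10 organoids 1.98-fold (1.76 to 2.24). VIPR2, the VIP receptor of smooth muscle, had 443 reads in intestine, 36 in muscle, and 44 at P5 and 312 at P10 in organoids, and was 5.17-fold higher at P10 than at P5 (3.76 to 7.27). TACR2, the neurokinin A receptor, had 506 reads in intestine and 70 in muscle but 1452 at P5 and 2180 at P10. P5 organoids were 3.33-fold above intestine for TACR2 (3.01 to 3.69) and P10 organoids 3.65-fold (3.31 to 4.03). TACR3, the receptor of neurokinin B, had 1695 reads in intestine, 1391 in muscle, and 3138 at P5 and 2384 at P10 in organoids. Of the 6 receptor genes, 4 were called higher and 2 lower in intestine than in muscle, 2 higher and 4 lower than in P5 organoids, and 1 higher and 1 lower than in P10 organoids. The medians of the log2 ratio were 1.22, -1.13 and -0.02, beside 0.29, 0.083 and 0.12 over all rows, and the shares of all rows are those given for the RET ligands. Per library total, 4 were higher and none lower than in muscle, beside 57.1% and 11.5% of all rows, and VIPR1 also passed 2-fold against P10 organoids.

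**Figure D4:**
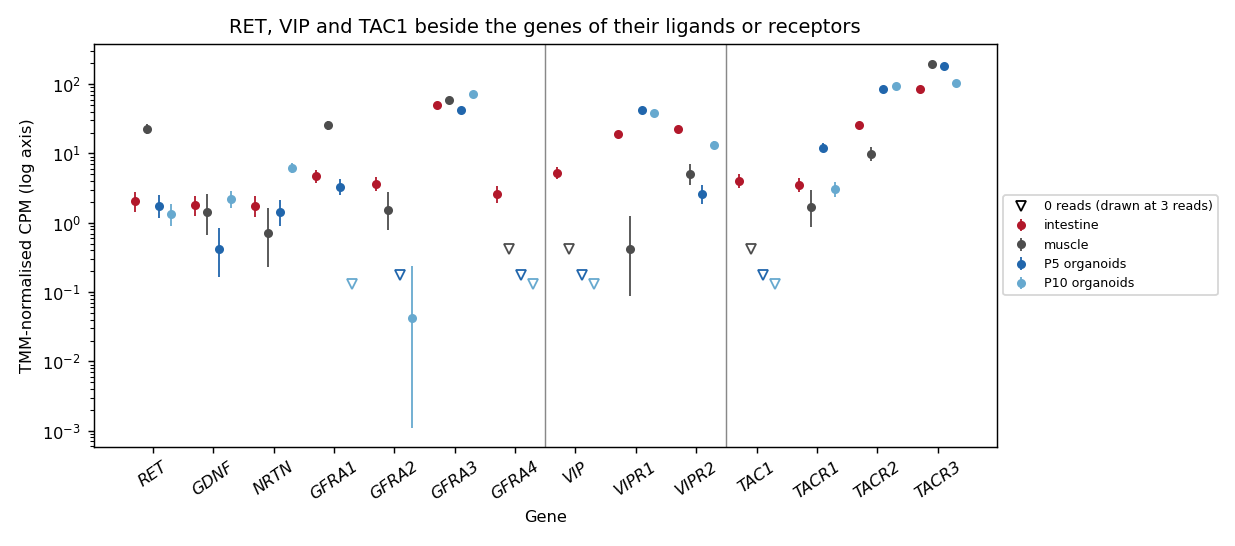
Levels of RET, VIP and TAC1 beside the genes of their ligands, co-receptors or receptors, in TMM-normalised CPM on a log axis with exact 95% counting intervals. Triangles stand for 0 reads, drawn at the floor of 3 reads. RET and GFRA1 are highest in muscle, and VIPR1 and TACR2 are higher in both organoid libraries than in intestine, where alone VIP and TAC1 have reads.

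Marker genes of other cell types moved with the same comparisons. Cells of the enteroendocrine lineage share several neuronal genes, and the 13 genes of that list summed to 662 CPM in intestine, 7.61 in muscle, and 5.59 at P5 and 5.88 at P10 in organoids. Of these, 9 of 10 with at least 10 reads were called higher in intestine than in P5 organoids and none lower, and against P10 organoids 9 of 10 were higher and 1 lower. At each passage only 3 of the 13 genes reached 10 reads. Over all rows, 27.0% were called higher and 18.4% lower against P5 organoids, and 31.6% and 22.0% against P10 organoids, for this list and those below. CHGA, which encodes chromogranin A, had 3219 reads in intestine, none in muscle, and 43 at P5 and 95 at P10 in organoids. The 8 smooth muscle genes summed to 3132 CPM in intestine, and 49.8 at P5 and 44.8 at P10 in organoids, and all 8 were called higher in intestine than in either. Only 4 of them reached 10 reads at P5 and 5 at P10. Per library total, 7 were called higher than in P10 organoids, beside 28.4% of all rows. The 3 markers of interstitial cells of Cajal, the pacemaker cells of the gut, summed to 47.0 CPM in intestine, 12.5 in muscle, and 1.65 at P5 and 0.258 at P10 in organoids. The 7 leukocyte genes summed to 4664 CPM in intestine and to between 4.71 and 47.4 in the other libraries. The 8 epithelial genes summed to 2843 CPM in intestine, 9918 in P5 and 7663 in P10 organoids, and 49.6 in muscle, and KRT8 and KRT19 were the largest part of the organoid sums. Of these 8, 6 were called lower in intestine than in P5 organoids and none higher, and 5 lower than in P10 organoids and 1, KRT20, higher. The part of these cell types in the levels of VIP, TAC1, ELAVL4, UCHL1 and S100B was not tested.

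Muscle, where S100B, UCHL1 and RET were highest, had 89980 CPM over the 9 skeletal muscle genes, against 1.67 to 3.30 in the other libraries, with 6 of those genes at 0 reads in intestine and 6 in P10 organoids. The 7 adipocyte genes, which mark another cell type known to express S100B, summed to 260 CPM in muscle, 20.4 in intestine, and 102 at P5 and 98.5 at P10 in organoids. LPL, a lipase gene that other cells also express, made up 101 CPM of the P5 sum and 97.8 of the P10 sum, and had 3.70 in intestine and 137 in muscle. Of 5 adipocyte genes with at least 10 reads, LPL was the 1 called lower in intestine than in organoids, while 3 were called higher against P5 and 4 against P10. Only 2 of the 7 genes reached 10 reads at each passage, so the others could not be called lower in intestine. Of 6 adipocyte genes with at least 10 reads, 5 were called lower in intestine than in muscle and 1, CIDEC, higher. Over all rows, 23.0% were called lower and 34.6% higher against muscle, and the shares against organoids are those given for the enteroendocrine genes. The smooth muscle list summed to 4185 CPM in muscle, mostly through DES, which skeletal muscle shares and which had 28404 reads there. VIP, TAC1, GFAP and SOX10 were at 0 reads in muscle, but in intestine GFAP also had 0 and SOX10 only 2. Of the 16 other neuronal genes, 6, among them SYP, were at 0 reads in muscle and 7 had at least 10. Of the 15 other glial genes, 4 were at 0 reads and 8 had at least 10. Those with reads in muscle included SYT1 (81), NEFM (78) and NCAM1 (526). The part of muscle fibres, fat cells and nerve in the muscle reads of S100B, UCHL1 and RET was not tested.

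**Figure D5:**
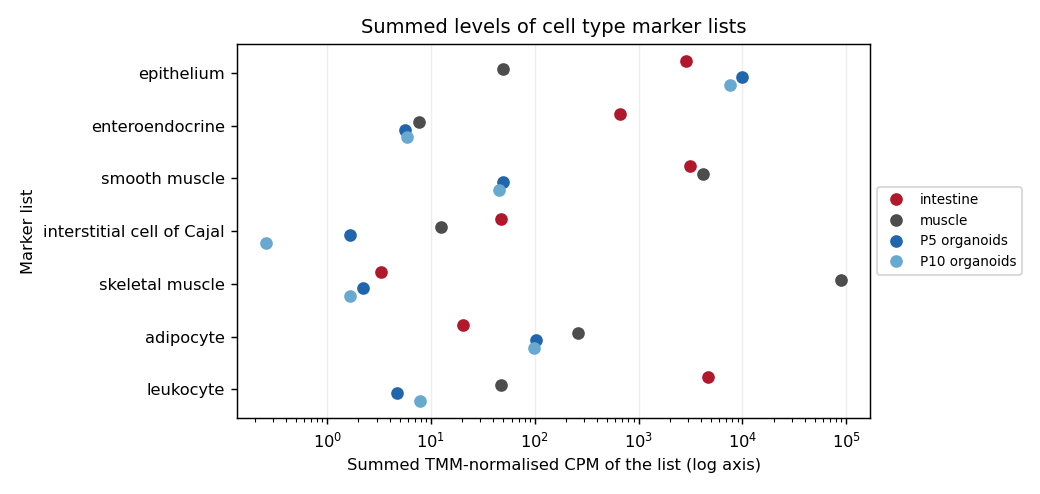
Summed level of each list of cell type markers in each library, in TMM-normalised CPM on a log axis. The enteroendocrine, leukocyte and interstitial cell of Cajal lists are highest in intestine (662, 4664 and 47.0 CPM), and the skeletal muscle and adipocyte lists in muscle (89980 and 260 CPM).

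The genes with the nearest pattern were found by the distance between values of log2(CPM + 1), centred per gene, over the 4 libraries, among 15050 other rows with at least 50 reads in a library, a minimum that ELAVL4 did not reach. For S100B these were PKIA (distance 0.133), AKAP6 (0.206) and CDH13 (0.297). For UCHL1 they were RGMA (0.465), CITED1 (0.846) and TPM1 (0.849), all farther away than the neighbours of the other members. Among the nearest to RET were LOC101906694 (0.180) and LOC112445030 (0.181), with 66 and 58 reads in muscle. ISL2 and PRF1 had the same 104 reads in intestine and none elsewhere as VIP, and GPBAR1 had 103. FAM167A, CCR2 and GPR132 were nearest to TAC1, with 77 to 82 reads in intestine and none elsewhere. With 4 libraries, many genes share such a pattern, as the 83 rows counted above show.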

How the data were processed

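RNA of 4 samples, 1 library per condition, was sequenced with the QuantSeq 3′ kit from 500 ng of total RNA. The authors used Bowtie2 for alignment and Bedtools to count both unique and multiple alignments per gene, and deposited whole-number read counts per gene without normalisation. The genome build, annotation and counting strand are not given in the sources used here, so no coordinates or sequences are shown. Of the 29792 rows, 22200 had a read. The 8 genes each matched 1 row and 1 symbol of the RefSeq table of ARS-UCD2.0, and overlaps of genes are from that table.

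The study names quantile normalisation with edgeR. That method gave a single read a log2 value of 0.322 in intestine and 0.807 at P5 but 2.09 in muscle and at P10, so TMM factors (edgeR 4.0.16) were the main scaling and quantile normalisation an alternative. The factors were 1.11 in intestine and 0.549 in muscle, and 1.25 and 1.31 in organoids at P5 and P10. Intervals of levels are exact Poisson, and those of ratios exact conditional binomial (Clopper-Pearson), at 95%. The sources used here name no molecular identifiers, so PCR copies may be counted and intervals cover counting error only. A gene with reads in only 1 library had its fold computed against 3 reads in the other, and no fold was given where both had 3 or fewer. The code for ratios and calls was run on simulated Poisson counts, drawn from the intestine profile with known fold changes. Those counts held no shift of a whole library like that of muscle and no spread beyond counting error. The run was therefore a check of the code only.

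The members, lists and rules were chosen with earlier results of these data known. Genes named by rule are all members, up to 4 genes with the most reads of each other list, and the 3 nearest patterns of each member with at least 50 reads in a library. Other genes were named after their values were seen, as stated beside them, and a few that the rule names are not reported here. Alternatives were library totals, library totals without RN18S1, size factors of DESeq2 1.42.0, upper-quartile factors, quantile normalisation of log2(value + 1), no filter, at least 50 reads and at least 4-fold. R 4.3.3 and Python 3.11.15 were used, the latter with scipy 1.17.1 and pandas 2.3.3.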

Additional observations from a re-analysis of the deposited data

Results flagged for a closer look

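UCHL1 differed from intestine in P5 organoids and was within 2-fold of it in P10 organoids, with log2 ratios of opposite sign. Its log2 ratio of intestine to organoids was 3.14 at P5 (interval 2.66 to 3.65) and -0.25 at P10 (-0.44 to -0.06). The difference between the passages was not tested, since each has 1 library.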

How the results depend on the processing

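Over the 8 alternatives, the numbers of the 8 genes called in each direction stayed within 1.5 times the main number in 63 of 64 recounts. The exception was the 1 gene called lower at P10 than at P5: it became 0 when at least 50 reads were asked for, since S100B had 48 reads at P5. That minimum also left out ELAVL4, with 44 reads, and so its call in all 3 comparisons with intestine, and asking for 4-fold ended the call of S100B against P5 organoids. A fall from 3 to 2 or from 5 to 4 genes still counts as within 1.5 times. The recounts include genes called lower in intestine than in organoids, which were 0 under every setting. ELAVL4, VIP and TAC1 could not be called lower there, so the 63 of 64 was partly fixed in advance. Single log2 ratios of the genes moved beyond the counting limits in 12 of 21 cases with quantile normalisation, which include the lower bounds of VIP and TAC1 in all 3 comparisons with intestine, 4 with library totals, 3 with library totals without RN18S1 and none with the other 2 scalings. No called gene changed direction. VIP and TAC1, with 0 reads outside intestine, and ELAVL4, with 1 or 2 in each other library, could hardly have done so under any scaling used. Against muscle, quantile normalisation gave log2 ratios of -3.96 for S100B, -2.17 for UCHL1 and -4.17 for RET. Over all rows, 6075 were higher in intestine than in muscle and 4045 lower with TMM, 10023 and 2023 with library totals, and 8703 and 2457 without RN18S1 in the totals. Asking for 4-fold left 3393 and 2035, against P5 organoids 3095 and 1396 of 4800 and 3269, against P10 organoids 3876 and 1673 of 5620 and 3917, and between the passages 789 and 1583 of 2680 and 3067. Asking for 50 reads left 1646 of those 3067. No paired analysis was possible because each condition has 1 library. At this depth a gene with up to 3 reads cannot be told apart from 0, which holds for SOX10 everywhere and for ELAVL4 outside intestine.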
